A study of Mus musculus with 40 samples.

Results

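Slc22a26 and Slc22a27 are 2 mouse genes of the solute carrier family 22, and their liver transcripts were followed over 8 groups of 5 mice that differed in sex, gonads and hormone pellet. They were found by symbol in the platform's probe-to-gene table and are 2 of 10842 named genes, with 1 probe each out of 23574. Both were singled out because of their levels in these same groups, so their levels and differences are given as a description without a test. The probe of Slc22a26 was designed on the RefSeq transcript NM_146232 and that of Slc22a27 on the GenBank sequence AB056442, per the platform annotation.

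All 40 mice were C57BL/6J, an inbred strain, fed chow with 4% fat, fasted for 12 h and killed at 14 weeks of age, and each liver was hybridised to 1 array against a pool of livers. The groups were ovariectomized females with a pellet of dihydrotestosterone (DHT), of estradiol or of placebo, intact females, castrated males with a pellet of DHT, of estradiol or of placebo, and intact males. In the operated groups the gonads had been removed at 8 weeks and the pellet placed at 12 weeks. The DHT pellet held 5 mg and the estradiol pellet 0.5 mg, both for release over 21 days, with stated plasma levels of 1 to 2 ng/ml of DHT and 300 pg/ml of estradiol. DHT is an androgen that cannot be converted to estrogen by aromatase. The study's design text describes all mice as gonadectomized, whereas the labels call 10 of them intact, and the labels were followed. The sources used here do not state whether intact mice carried a pellet.

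Carriers of the SLC22 family sit in the plasma membrane, and the organic anion transporter branch moves small negatively charged compounds, among them drugs, urate and sulfated or glucuronidated steroids. In rodents a row of such genes lies beside Slc22a6 and Slc22a8, which encode organic anion transporters best known from the kidney. Many genes of mouse liver differ between the sexes because growth hormone is secreted in pulses in males and more evenly in females, acting through the transcription factor STAT5B together with HNF6, CUX2, BCL6 and others. Testicular androgen maintains the male pattern of growth hormone secretion and can also act through the androgen receptor.

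In the RefSeq order of protein-coding genes on chromosome 19, Slc22a26 and Slc22a27 are direct neighbours, between Slc22a19 on one side and Slc22a28, Slc22a29, Slc22a30, Slc22a8 and Slc22a6 on the other. The promoter windows of the 2 genes are shown because the genes varied together over the 40 livers. Each window runs from 250 bases before to 50 bases after the start in the RefSeq table, assembly GRCm38.p6, 5′ to 3′ on the minus strand, at chr19:7802618-7802917 for Slc22a26 and at chr19:7965978-7966277 for Slc22a27. Capitals mark matches to the motifs searched.
Slc22a26: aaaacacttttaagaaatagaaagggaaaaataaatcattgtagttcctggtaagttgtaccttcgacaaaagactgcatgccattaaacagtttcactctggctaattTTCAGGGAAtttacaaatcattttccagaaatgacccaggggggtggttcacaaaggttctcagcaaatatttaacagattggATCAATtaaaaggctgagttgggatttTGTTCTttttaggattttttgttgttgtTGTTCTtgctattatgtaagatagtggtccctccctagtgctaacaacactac
Slc22a27: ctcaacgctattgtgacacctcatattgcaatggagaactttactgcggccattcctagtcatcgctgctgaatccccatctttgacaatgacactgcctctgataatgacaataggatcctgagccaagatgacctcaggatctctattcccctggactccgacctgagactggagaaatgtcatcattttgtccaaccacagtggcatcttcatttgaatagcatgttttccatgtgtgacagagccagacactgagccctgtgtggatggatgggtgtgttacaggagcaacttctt
A total of 5 motifs of factors known in liver or androgen signalling were searched on both strands. TTCNNNGAA of STAT5 is in 8.3% of all 32851 promoter windows, ATTGAT, a core of HNF6 and CUX2 sites, in 7.54%, TGTTCT, a part of androgen response elements, in 19.0%, GTTAAT, a part of HNF1 sites, in 7.1%, and TGTTTAC of FOXA factors in 3.65%. The Slc22a26 window held TTCAGGGAA at 141 bases before the start, ATCAAT, the ATTGAT core on the opposite strand, at 58 bases before it, and TGTTCT at 31 and at 3 bases before it. The Slc22a27 window held none of the 5 motifs. A match is a match of letters only, and the RefSeq span of Slc22a27 reaches beyond the start used here, so that other starts exist.

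Each value below is a log2 ratio of a liver to the pool, so that 0 equals the pool and a difference of 1 is a doubling. The deposited ratios were read as log10, a base inferred from their values, and converted to this scale. Levels of different probes are not comparable, and only differences between livers are. Whole liver was measured, so fewer cells of a type and less RNA per cell cannot be told apart. Slc22 genes are close in sequence, and whether the 2 probes also read their relatives was not tested. Signal over background was not used here, so the lowest ratios, those of intact males, may be limited by background.

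Intact females had far more transcript of both genes than intact males. For Slc22a26 the 5 intact females lay at 0.95, 0.60, 0.73, 0.17 and 0.76, and the 5 intact males at -5.12, -5.26, -5.59, -4.75 and -5.12. For Slc22a27 the intact females lay at 0.83, 0.95, 0.50, 0.03 and 0.28, and the intact males at -2.77, -2.59, -2.97, -2.16 and -2.64. In both genes every female stood above every male with a wide gap between the groups. The mean was 0.64 ± 0.29 in intact females and -5.17 ± 0.31 in intact males for Slc22a26 (SD, n = 5 each), a difference of 5.81 ± 0.56 (SE), or 56.2-fold. For Slc22a27 it was 0.52 ± 0.38 in intact females and -2.63 ± 0.30 in intact males (SD, n = 5 each), a difference of 3.15 ± 0.37 (SE), or 8.85-fold. The groups did not overlap for 6.74% of all probes in this comparison, and for 2.66% with females higher, a background from which nothing is read because the genes were chosen on this contrast. The SE comes from the fit to all 8 groups, which pools the wide spread of the DHT groups with the narrow spread of the others. From the 2 intact groups alone it was 0.19 for Slc22a26 and 0.22 for Slc22a27, and in comparisons with a DHT group the SE from the 2 groups alone was larger than the pooled one. With quantile normalization between arrays the Slc22a26 difference was 4.23.

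**Figure D1:**
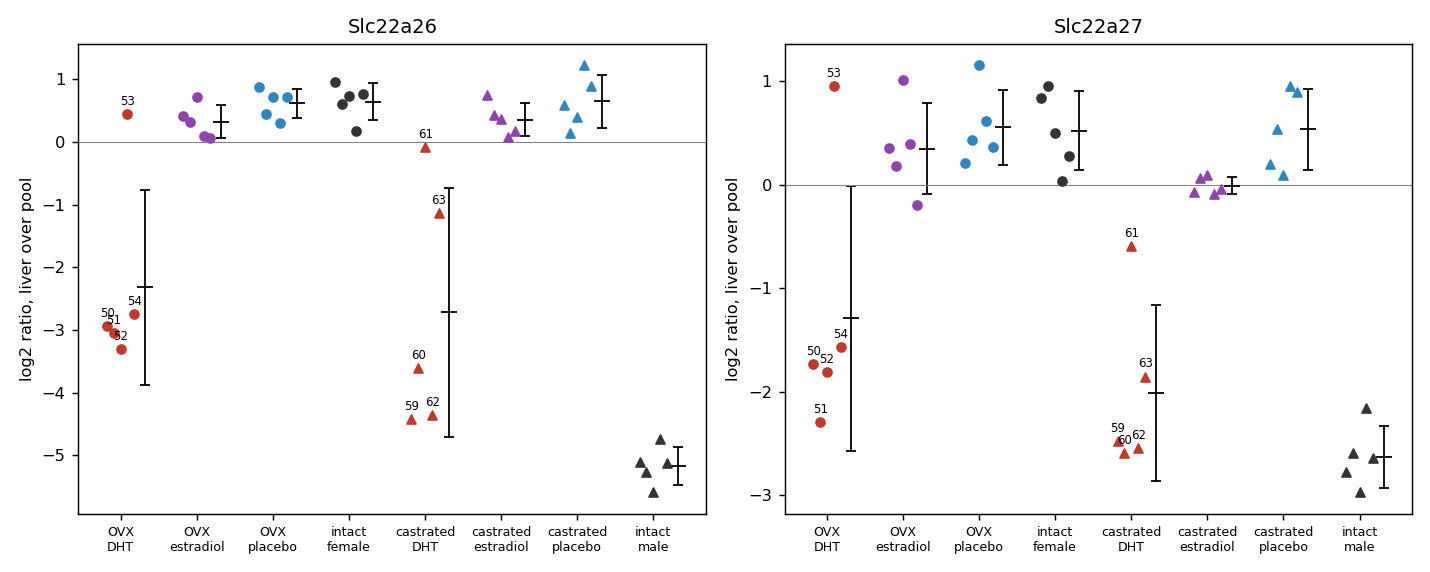
Log2 ratio of each liver to the pool for Slc22a26 (left) and Slc22a27 (right) in the 8 groups of 5 mice; circles are females, triangles are males, colours are treatments, and the bars beside the points are the mean and SD. The 5 intact males are lowest for Slc22a26, the 5 groups without testes or DHT lie around or above 0, and the DHT animals, labelled by number, spread between them.

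Castrated males with placebo had levels of both transcripts like those of females. Their Slc22a26 values were 0.59, 0.13, 0.39, 1.22 and 0.89, against -5.12, -5.26, -5.59, -4.75 and -5.12 in intact males. Their Slc22a27 values were 0.20, 0.54, 0.09, 0.95 and 0.89, against -2.77, -2.59, -2.97, -2.16 and -2.64 in intact males. All 5 castrated animals stood above all intact males in both genes. The castrated mean was 0.65 ± 0.43 for Slc22a26 and 0.53 ± 0.39 for Slc22a27 (SD, n = 5 each), so the differences were 5.81 ± 0.56 (SE), or 56.2-fold, and 3.16 ± 0.37 (SE), or 8.94-fold. Groups did not overlap for 8.25% of all probes, and for 3.55% with castrated males higher. The Slc22a26 difference was 4.22 with quantile normalization.

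Removal of the ovaries went with no comparable change. Ovariectomized females with placebo had Slc22a26 values of 0.88, 0.44, 0.72, 0.31 and 0.71 and Slc22a27 values of 0.21, 0.43, 1.15, 0.61 and 0.37, all within or close to the range of the intact females. Their means differed from those of intact females by -0.03 ± 0.56 for Slc22a26 and by 0.04 ± 0.37 for Slc22a27 (SE). Against castrated males with placebo, the ovariectomized females with placebo differed by -0.03 ± 0.56 for Slc22a26 and by 0.02 ± 0.37 for Slc22a27 (SE). The effect of gonadectomy in females minus that in males was -5.84 ± 0.79 for Slc22a26 and -3.13 ± 0.53 for Slc22a27 (SE). Over all 25 animals of the 5 groups with neither testes nor DHT, Slc22a26 ranged from 0.06 to 1.22 and Slc22a27 from -0.20 to 1.15.

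With estradiol both genes stayed near their placebo levels, with lower means in both sexes and the widest gap for Slc22a27 in castrated males. Castrated males with estradiol had Slc22a27 values of -0.08, 0.06, 0.10, -0.09 and -0.04, against 0.20, 0.54, 0.09, 0.95 and 0.89 in castrated males with placebo. Of the 5 estradiol animals 4 lay below all placebo animals, and the groups met only where the highest of the estradiol group and the lowest of the placebo group nearly coincided. The difference of the means was -0.54 ± 0.37 (SE), or ± 0.18 (SE) from these 2 groups alone. For Slc22a26 the castrated males with estradiol lay at 0.74, 0.43, 0.36, 0.08 and 0.17. They differed from placebo by -0.29 ± 0.56 (SE; 0.22 from these 2 groups alone), with overlapping groups. In ovariectomized females with estradiol, Slc22a26 was 0.41, 0.32, 0.72, 0.09 and 0.06. This was a difference of -0.29 ± 0.56 (SE; 0.16 from these 2 groups alone) from ovariectomized females with placebo. Slc22a27 was 0.35, 0.18, 1.01, 0.39 and -0.20 in the ovariectomized females with estradiol. The difference was -0.21 ± 0.37 (SE; 0.25 from these 2 groups alone), and the groups overlapped in both genes. The 8 markers of Kupffer cells and macrophages were followed as a mean log2 ratio. It lay between -0.28 and 1.62 in ovariectomized females with estradiol, against -0.48 to 0.11 in those with placebo. In castrated males it ran from -0.49 to 0.80 with estradiol and from -0.57 to -0.04 with placebo. The median difference of the 8 was 0.74 in females and 0.40 in castrated males. In limma 0 of the 8 passed in either estradiol comparison, against 0.632% of all probes in females and 1.18% in castrated males. At such shares nothing is read from this count. The part of these cells in the transporter values was not tested.

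Both transcripts were lower in most of the animals that received DHT. Castrated males with DHT, animals 59 to 63, had Slc22a26 values of -4.43, -3.60, -0.08, -4.35 and -1.13, against 0.59, 0.13, 0.39, 1.22 and 0.89 in castrated males with placebo. Their Slc22a27 values were -2.48, -2.59, -0.59, -2.54 and -1.85, against 0.20, 0.54, 0.09, 0.95 and 0.89 with placebo. All 5 stood below all placebo animals in both genes, 3 of them nearest to the intact males. Animal 61 was just below the placebo range for Slc22a26 and further below it for Slc22a27, and animal 63 lay between. The means were -2.72 ± 1.99 with DHT and 0.65 ± 0.43 with placebo for Slc22a26, and -2.01 ± 0.85 with DHT and 0.53 ± 0.39 with placebo for Slc22a27 (SD, n = 5 each). The differences were -3.36 ± 0.56 (SE), 10.3-fold lower, and -2.55 ± 0.37 (SE), 5.84-fold lower, and from these 2 groups alone the SE was 0.91 for Slc22a26 and 0.42 for Slc22a27. Groups did not overlap for 4.06% of all probes, and for 1.97% with DHT lower. Without animal 61 the Slc22a26 difference was -4.02, or 16.3-fold, and the Slc22a27 difference -2.90, or 7.46-fold.

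In ovariectomized females with DHT, animals 50 to 54, Slc22a26 was -2.93, -3.05, -3.31, 0.44 and -2.75, against 0.88, 0.44, 0.72, 0.31 and 0.71 in ovariectomized females with placebo. Slc22a27 was -1.73, -2.29, -1.81, 0.95 and -1.57 in them, against 0.21, 0.43, 1.15, 0.61 and 0.37 with placebo. In both genes 4 of the 5 DHT animals lay far below all placebo animals and animal 53 lay inside the placebo range, so the groups overlapped. Groups did not overlap for 4.5% of all probes here. The means were -2.32 ± 1.56 with DHT and 0.61 ± 0.23 with placebo for Slc22a26, a difference of -2.94 ± 0.56 (SE), or 7.65-fold lower. For Slc22a27 they were -1.29 ± 1.28 with DHT and 0.55 ± 0.36 with placebo (SD, n = 5 each), a difference of -1.84 ± 0.37 (SE), or 3.59-fold lower. From these 2 groups alone the SE was 0.70 for Slc22a26 and 0.60 for Slc22a27. Without animal 53 the differences were -3.63, or 12.3-fold, for Slc22a26 and -2.40, or 5.29-fold, for Slc22a27. The DHT effect in females minus that in males was 0.43 ± 0.79 for Slc22a26 and 0.70 ± 0.53 for Slc22a27 (SE), so a difference between the sexes was not resolved. The 8 Kupffer cell and macrophage markers averaged -0.62 with DHT and -0.27 with placebo in females. In castrated males they averaged -0.32 with DHT and -0.36 with placebo. In limma 0 of the 8 passed in either DHT comparison (1.15% and 3.47% of all probes), and their part in the transporter values was not tested.

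Set against intact males, the DHT groups stayed higher for Slc22a26. Castrated males with DHT exceeded intact males by 2.45 ± 0.56 (SE; 0.90 from these 2 groups alone), or 5.46-fold, and all 5 stood above all intact males; without animal 61 the difference was 1.79, or 3.45-fold, and with quantile normalization 1.25. Groups did not overlap for 4.13% of all probes there, and for 1.77% with castrated DHT males higher. Ovariectomized females with DHT exceeded intact males by 2.85 ± 0.56 (SE; 0.71 from these 2 groups alone), or 7.19-fold, again without overlap, which held for 5.02% of all probes and for 1.81% with the DHT females higher. Without animal 53 this difference was 2.15, or 4.45-fold, and with quantile normalization 1.47. For Slc22a27 the groups overlapped, with differences from intact males of 0.62 ± 0.37 (SE) in castrated males with DHT and 1.34 ± 0.37 (SE) in ovariectomized females with DHT. From the 2 groups alone these SEs were 0.40 and 0.59. Without animal 61 the first Slc22a27 difference was 0.26, and without animal 53 the second was 0.78. The comparisons with intact males share those 5 animals, and the comparisons with placebo share theirs.

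The 10 DHT animals can be placed on the way from the placebo mean of their sex, at 0%, to the intact male mean, at 100%, on the log2 scale. For Slc22a26 animals 59, 60 and 62 stood at 87.3%, 73.1% and 86.0%, and animals 63 and 61 at 30.6% and 12.5%. For Slc22a27 the same castrated males stood at 95.3%, 98.8% and 97.4%, with animals 63 and 61 at 75.5% and 35.7%. In ovariectomized females, animals 50, 51, 52 and 54 stood at 61.3%, 63.4%, 67.9% and 58.3% for Slc22a26 and at 71.9%, 89.4%, 74.4% and 66.7% for Slc22a27, while animal 53 stood at 3.01% and -12.4%. On the log2 scale Slc22a27 was thus the further of the 2 genes along this way in 9 of 10 animals, a comparison of shares and not of levels. The order depends on this scale and on the intact male means, which may be limited by background. In linear ratios animal 50 stood at 0.13 for Slc22a26, between 1.53 (placebo) and 0.03 (intact males). For Slc22a27 it stood at 0.30, between 1.47 and 0.16. No fuller response of either gene is read from these shares.

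In animal 53, and less clearly in animal 61, many probes beyond these 2 shifted less than in the other DHT animals of their sex. The stated plasma range is the same for all DHT animals, so whether exposure or response differed was not tested. A mean shift was computed from the 89 probes that DHT changed at least by 1 on the log2 scale in castrated males, without the 2 genes, and read in the females, so that no female chose her own probes. This measure was added after the values had been seen. In ovariectomized females with DHT the shift was 1.54, 1.58, 1.45, 0.27 and 1.47 for animals 50 to 54, against -0.08 to 0.11 in those with placebo. From the 57 probes chosen in females, castrated males with DHT, animals 59 to 63, had shifts of 2.16, 1.80, 0.50, 2.07 and 1.52, against -0.09 to 0.10 in those with placebo. The lowest shift belonged to animal 53 in females and to animal 61 in males, the same animals that kept the highest Slc22a26 and Slc22a27 values of their groups. Its gap to the nearest animal was 0.90 of the group's range for animal 53 and 0.61 for animal 61. Animal 61 still had 91.2% of the 57 probes in the DHT direction, against at most 59.6% in castrated males with placebo. Animal 53 had 71.9% of the 89 probes in that direction, against at most 69.7% in females with placebo. Animal 63, intermediate for Slc22a26, had a shift not far from that of the others.

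**Figure D2:**
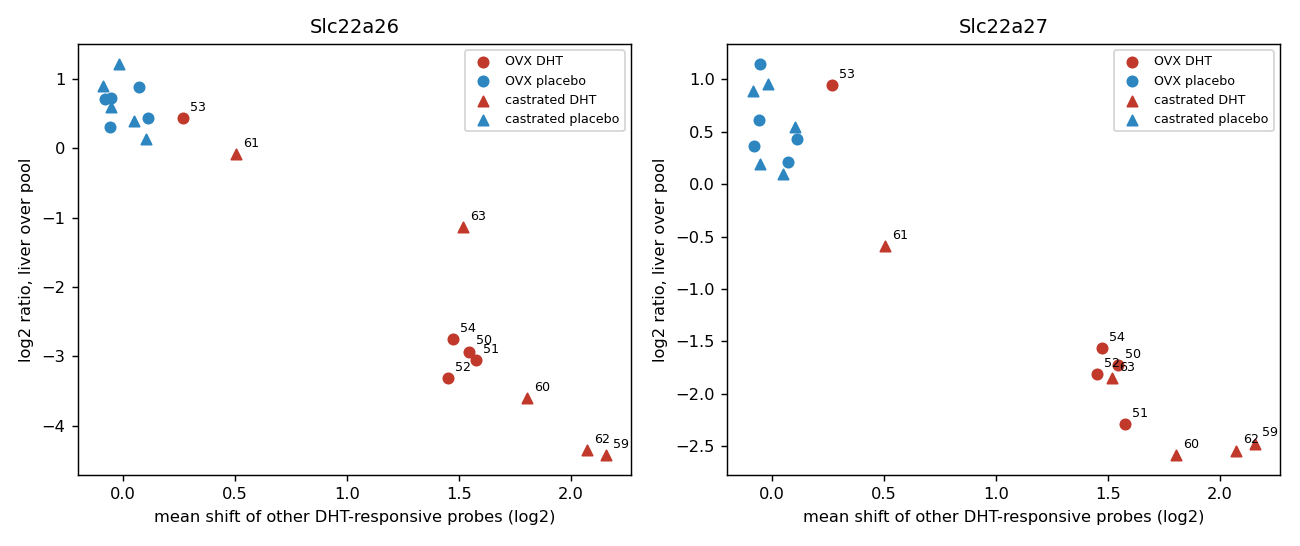
Log2 ratio to the pool of Slc22a26 (left) and Slc22a27 (right) against the mean shift of the other DHT-responsive probes (log2), for DHT animals in red and placebo animals in blue; circles are ovariectomized females and triangles castrated males. Of the DHT animals of their sex, 53 and 61 lie nearest to the placebo animals on both axes. Their shifts were 0.27 and 0.50, against at most 0.11 in females and 0.10 in males with placebo.

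The order of the group means was nearly the same for the 2 genes. For Slc22a26 it ran from castrated males with placebo (0.65) and intact females (0.64) through ovariectomized females with placebo (0.61), castrated males with estradiol (0.36) and ovariectomized females with estradiol (0.32) to ovariectomized females with DHT (-2.32), castrated males with DHT (-2.72) and intact males (-5.17). Of the 7 steps between neighbouring groups, only the last, from castrated males with DHT to intact males, had no overlap of animals. For Slc22a27 the order was ovariectomized females with placebo (0.55), castrated males with placebo (0.53), intact females (0.52), ovariectomized females with estradiol (0.35), castrated males with estradiol (-0.01), ovariectomized females with DHT (-1.29), castrated males with DHT (-2.01) and intact males (-2.63). Every neighbouring pair of groups overlapped for Slc22a27.

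The 2 genes also varied together between animals of the same group, which the group means do not fix. After each group's mean was removed, Slc22a27 and Slc22a26 correlated over the 40 animals with Pearson's r = 0.83 and Spearman's rho = 0.74, with two-sided permutation p-values of 2e-05 and 0.00013 from 100000 permutations within groups. Without animals 53 and 61, the 2 farthest from the median for Slc22a26, r was 0.52 (permutation p = 0.00053) and rho 0.52 (permutation p = 0.00303). Without both DHT groups, 30 animals remained and r was 0.57 (permutation p = 0.00377) and rho 0.46 (permutation p = 0.0226); this and the leaving out of the 2 animals were settled after the data had been seen. No other pair was put to this permutation test, but the 2 genes were singled out together on values of these same arrays. The p-values therefore describe this pair and are not independent support. Among the 23573 other probes, Slc22a27 ranked 6 by this within-group r with Slc22a26, and the median over these probes was -0.02. Both values of an animal come from the same array, so labelling and tissue sampling are shared between them.

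**Figure D3:**
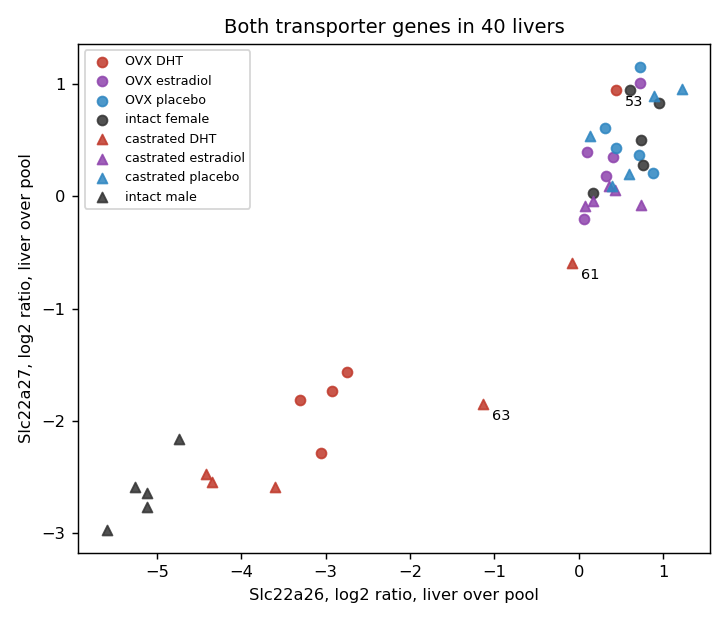
Slc22a27 against Slc22a26 in all 40 livers, both as log2 ratio to the pool; circles are females, triangles males, and colours are treatments. The 25 animals without testes or DHT and animal 53 form the upper right group, the 5 intact males the lower left, and most DHT animals lie between, with animals 61 and 63 marked.

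The genes most like Slc22a26 over all 40 livers were ranked by Pearson's r over the 40 arrays, given as a description. They were Cyp2b13 (0.98) and Cyp2b9 (0.97), both cytochrome P450 genes, Rdh16f2 (0.97), of the retinol dehydrogenase family, Slc22a27 itself (0.96), the cytochrome P450 gene Cyp2c40 (0.93) and the sulfotransferase gene Sult3a1 (0.90). For Slc22a27 they were Slc22a26 (0.96), Cyp2b13 (0.95), Cyp2b9 (0.93), Rdh16f2 (0.92), the DNA repair gene Rad51b (0.91) and Hao2 (0.91), a peroxisomal hydroxy acid oxidase gene. The opposite pattern was clearest in Cyp4a12a, a fatty acid hydroxylase gene, at -0.97 with Slc22a26 and -0.96 with Slc22a27. Next came Cyp4a12b (-0.94) and the calcium-binding protein gene Necab2 (-0.94) for Slc22a26, and the ketosteroid reductase gene Hsd3b5 (-0.93) and the lactase gene Lct (-0.93) for Slc22a27. Where a gene had further probes, they were mostly less alike: r with Slc22a26 was 0.84 for the second probe of Cyp2b13, 0.81 for Cyp2b9, 0.61 for Sult3a1 and -0.24 for Hsd3b5, and 0.87, 0.86 and 0.02 for the 3 further probes of Cyp2c40.

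**Figure D4:**
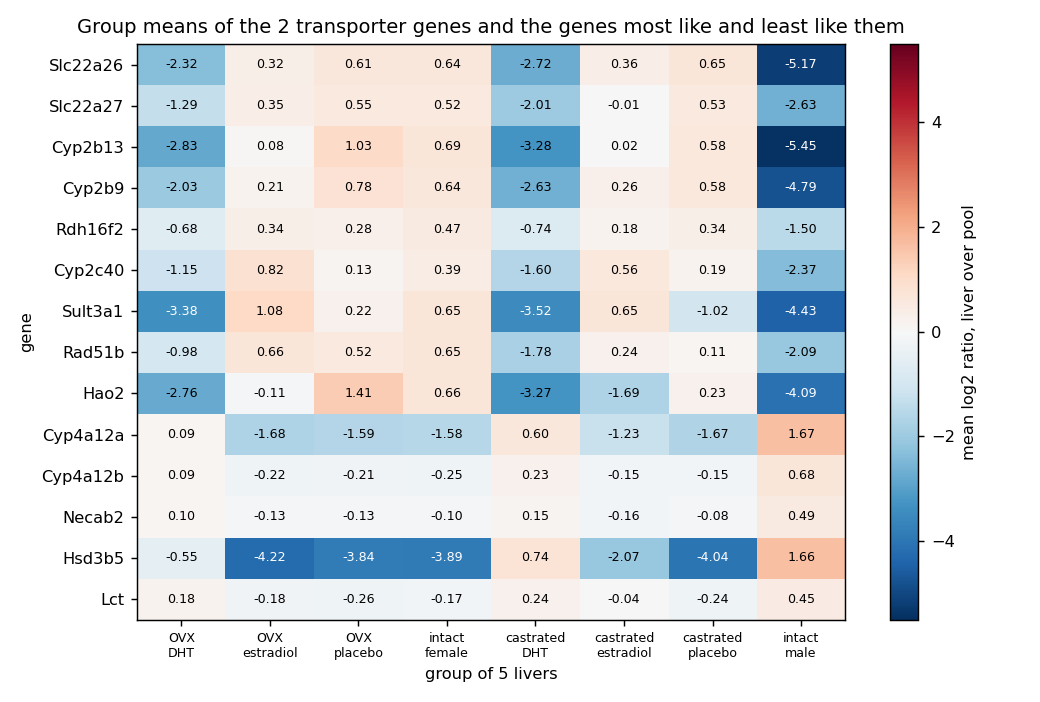
Mean log2 ratio to the pool in the 8 groups of 5 livers (columns) for Slc22a26, Slc22a27 and the genes named by likeness (rows), coloured from blue, below the pool, to red, above it. The first 9 rows are lowest in intact males and the last 5 highest there. Cyp2c40, Hao2, Rad51b and Sult3a1 are among the genes that differ from the 2 transporter genes in the estradiol or castrated placebo columns.

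These genes were chosen by r over arrays that include animals 53 and 61, so their values in these animals are a description. In animal 53 Cyp2b13 stood at -1.62%, Cyp2b9 at 0.44%, Rdh16f2 at -1.52% and Cyp4a12a at 5.76% of the way from placebo to intact males. In animal 61 they stood at 5.75%, 5.30%, 4.78% and 5.13%. The other 8 genes named by likeness, the 2 transporters aside, ran from -15.7% in Sult3a1 to 23.0% in Rad51b in animal 53, and from -8.12% in Cyp4a12b to 57.8% in Hao2 in animal 61, where Rad51b stood at 30.7%. The castrated male with the furthest Slc22a26 value, animal 59, stood at 97.1% for Cyp2b13, 98.6% for Cyp2b9, 94.0% for Rdh16f2 and 95.0% for Cyp4a12a. Animal 63 stood at 44.3%, 37.3%, 31.1% and 56.7% for these genes in the same order. In animal 63 the other 8 genes ran from -0.72% in Necab2 to 123% in Rad51b. With estradiol the values went in both directions, and no difference between genes was tested. Hao2 averaged -1.69 in castrated males with estradiol and 0.23 in those with placebo, and Sult3a1 averaged 0.65 with estradiol and -1.02 with placebo, while Slc22a26 averaged 0.36 with estradiol and 0.65 with placebo and Slc22a27 -0.01 with estradiol and 0.53 with placebo. In the same groups Cyp2b13 averaged 0.02 with estradiol and 0.58 with placebo, Cyp2b9 0.26 with estradiol and 0.58 with placebo, and Rdh16f2 0.18 with estradiol and 0.34 with placebo. Cyp2c40 averaged 0.56 with estradiol and 0.19 with placebo there, and Rad51b 0.24 with estradiol and 0.11 with placebo. Hsd3b5 averaged -2.07 with estradiol and -4.04 with placebo in these males. In ovariectomized females Cyp2c40 averaged 0.82 with estradiol and 0.13 with placebo.

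Of the rest of the Slc22 family, 17 genes were measured, and none shifted on the scale of Slc22a26 or Slc22a27 in the comparisons of intact animals and of castration. Differences of these and the following genes were tested with limma over all 23574 probes, and passing means an adjusted p below 0.05 by Benjamini and Hochberg's method. Between intact females and intact males 4 of 17 passed, 1 higher and 3 lower in females, against 8.69% of all probes, and the median over the 17 was -0.03 against 0.01 over all probes. After castration 6 of 17 passed, 2 higher and 4 lower in castrated males with placebo than in intact males, against 12.1% of all probes, with a median of -0.02 against 0.02. The count after castration was 3 without animal 10, 24 or 25. The effect of gonadectomy differed between females and males for 3 of 17 by limma's interaction test, against 4.4% of all probes.

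The nearby gene Slc22a30, another member of the organic anion transporter row, went the other way from Slc22a26 and Slc22a27. It averaged -0.41 ± 0.23 in intact females and 0.65 ± 0.14 in intact males (SD, n = 5 each), a difference of -1.06 ± 0.18 (SE; limma adjusted p = 6.64e-05), and all 5 females stood below all males. In castrated males with placebo it averaged -0.29 ± 0.39, which was lower than in intact males by 0.94 on the log2 scale (limma adjusted p = 0.000311), again in 5 of 5 animals. Slc22a7, the liver organic anion transporter OAT2, fell by 0.40 in intact females relative to intact males (limma adjusted p = 0.00437) and by 0.47 in castrated males relative to intact males (limma adjusted p = 0.000647), in 5 of 5 animals each. Slc22a6, the OAT1 gene, fell by 0.23 (limma adjusted p = 0.00194) and by 0.26 (limma adjusted p = 0.000467) in the same comparisons, also in 5 of 5 animals each. The direct neighbour Slc22a19 was slightly higher, by 0.14 in intact females (limma adjusted p = 0.043) and by 0.15 in castrated males (limma adjusted p = 0.0234), in 5 of 5 animals each. Of the intact females, 4 lay above all intact males for Slc22a19. Its first call was lost without animal 2, 3, 5, 8, 10 or 12, and its second without animal 10, 24 or 25.

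Slc22a17, a receptor gene for lipocalin, was higher in castrated males by 0.24 (limma adjusted p = 0.0306), a call lost in 6 of the 10 fits that left out 1 animal. All 5 animals lay above the intact male mean and 3 above all intact males. Slc22a5, the carnitine transporter OCTN2, was the remaining gene that was lower after castration, by -0.49 (limma adjusted p = 0.0485), a call lost in 7 of 10 such fits. All 5 animals lay below the intact male mean and 3 below all intact males. Slc22a5 is named here after its value was seen, outside the naming rule. The other neighbours Slc22a29, at 0.09 in intact females against intact males (limma adjusted p = 0.766), and Slc22a8, the OAT3 gene, at 0.01 (limma adjusted p = 0.93), did not pass. Slc22a28 was not analysed here. The mean log2 ratio of 8 T and B cell markers was also higher after castration. It ran from 0.04 to 0.20 in castrated males with placebo and from -0.18 to 0.01 in intact males. After castration 2 of 8 passed, Cd2 at 0.62 and Cd3d at 0.24, against 12.1% of all probes. Cd3e alone among the 8 lay lower, at -0.05, and did not pass. The same 2 markers passed between intact females and intact males, at 0.49 and 0.26, against 8.69% of all probes. Their part in the transporter differences was not tested.

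**Figure D5:**
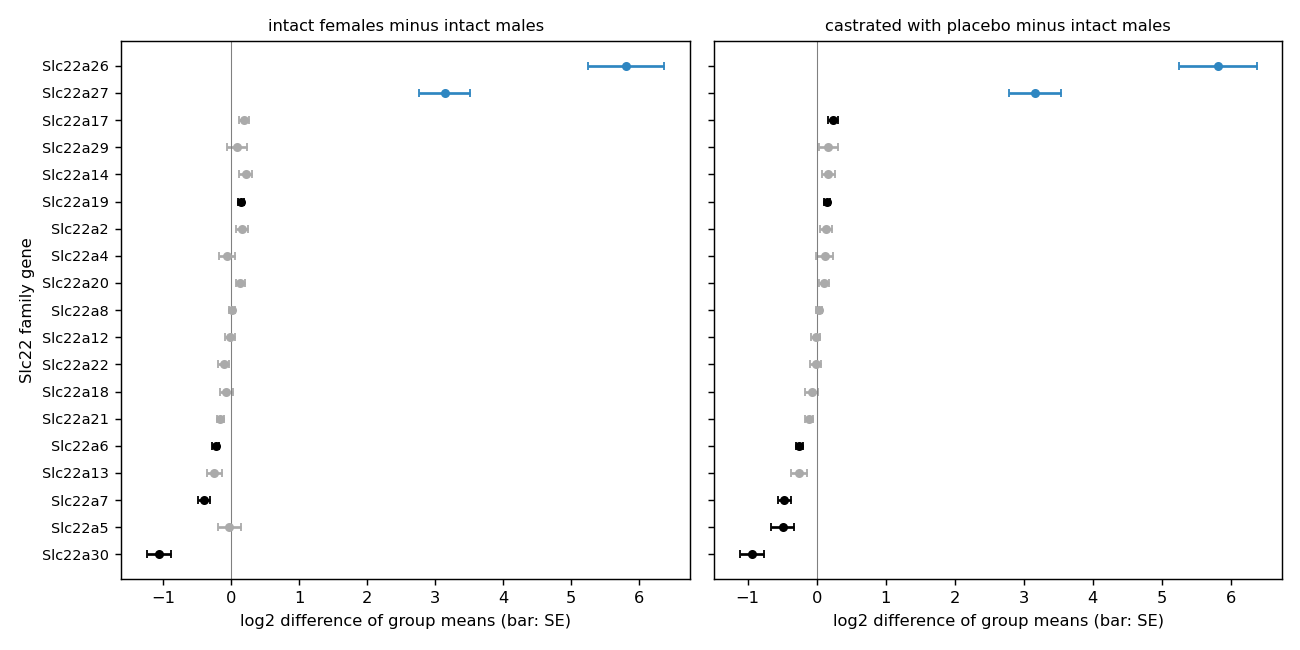
Log2 difference of group means for the 2 transporter genes (blue) and the 17 other Slc22 genes, intact females minus intact males (left) and castrated males with placebo minus intact males (right); bars are SE, black points passed at an adjusted p under 0.05 and grey points did not. Slc22a26 and Slc22a27 lie at 5.81 and 3.15 on the left, and over both panels the other family members lie between -1.06 and 0.24.

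DHT, estradiol and ovariectomy moved no other Slc22 gene past the threshold. The limma counts were 0 of 17 in castrated males with DHT against placebo (3.47% of all probes; 4 of 17 at an unadjusted p under 0.05), 0 of 17 in ovariectomized females with DHT against placebo (1.15%; 2 of 17 unadjusted) and 0 of 17 for ovariectomy (0.0339%; 1 of 17 unadjusted). They were also 0 of 17 for estradiol in castrated males (1.18%; 2 of 17 unadjusted), for estradiol in ovariectomized females (0.632%; 1 of 17 unadjusted) and between ovariectomized females and castrated males with placebo (0.0679%; 2 of 17 unadjusted). These percentages are for adjusted p. At an unadjusted p under 0.05, the count over all 23574 probes was 3721 for DHT in castrated males and 2675 for DHT in females. It was 1190 for ovariectomy, 3227 for estradiol in castrated males, 2542 for estradiol in ovariectomized females and 1277 between the placebo groups. The count was 1 for DHT in castrated males without animal 61 and 1 for estradiol in ovariectomized females without animal 33. Slc22a30 differed by 0.23 ± 0.18 (SE) between castrated males with DHT and with placebo (limma adjusted p = 0.648), and by 0.60 ± 0.18 (SE) in ovariectomized females (limma adjusted p = 0.0927). Against intact males 4 of 17 passed in castrated males with DHT, 1 higher and 3 lower (6.32% of all probes), and 2 of 17 in ovariectomized females with DHT, 1 higher and 1 lower (4.48%). The higher gene in both was Slc22a4, the ergothioneine transporter gene, at 0.41 (limma adjusted p = 0.0314) and 0.42 (limma adjusted p = 0.0345), 5 of 5 animals above the intact male mean in each. The Slc22a4 call was lost in 5 of 10 fits that left out 1 animal for castrated males with DHT and in 7 of 10 for ovariectomized females with DHT. The first of these counts was 2 without animal 10, 12, 60 or 61, and the second was 0 without animal 12, 53 or 54 and 1 without animal 10, 50 or 51.

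Other carriers of organic anions and bile salts changed in both directions with sex and castration. Of 28 measured, 8 passed between intact females and intact males, 4 higher and 4 lower, and 10 after castration, 5 higher and 5 lower, against the same 8.69% and 12.1% of probes; the second count was 6 without animal 25. Slco1a1, an uptake carrier of bile salts and steroid conjugates, was lower in intact females than in intact males by -1.55 ± 0.27 (SE; limma adjusted p = 0.000104), and the efflux pump gene Abcg2 by -1.50 ± 0.23 (SE; limma adjusted p = 1.21e-05), each in 5 of 5 animals. Both behaved alike after castration, at -1.89 and -1.52 in castrated males with placebo against intact males. In the opposite direction, Abcb1a, a P-glycoprotein gene, was higher in intact females by 1.55 ± 0.28 (SE; limma adjusted p = 2e-04) and in castrated males by 1.74. Slco1a4, another uptake carrier, was higher by 1.57 ± 0.32 (SE; limma adjusted p = 0.000869) in intact females and by 1.51 in castrated males on the probe of largest spread; its 2 further probes read 0.23 and -0.16 in the intact comparison and did not pass. Abcb1b, the second P-glycoprotein gene, was lower in intact females by -0.45 and in castrated males by -0.50.

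DHT raised a few of these carriers. In castrated males with DHT 3 of 28 passed against placebo (3.47% of all probes), 2 higher and 1 lower: Slco1a1 at 1.16 ± 0.27 (SE; limma adjusted p = 0.0107), Abcb1b at 0.40 ± 0.09 (SE; limma adjusted p = 0.00827) and, outside the naming rule and named after its value was seen, the phosphate and urate carrier gene Slc17a1 at -0.69. In ovariectomized females with DHT 2 of 28 passed (1.15% of all probes), both higher: Slco1a1 at 1.22 ± 0.27 (SE; limma adjusted p = 0.0152) and Abcg2 at 0.92 ± 0.23 (SE; limma adjusted p = 0.032). All 5 animals lay beyond the placebo mean in the named direction in each. For Slc17a1, 3 of the 5 lay below all placebo animals. Of the 10 fits that left out 1 animal, 8 lost the Abcg2 call and 3 the Slco1a1 call in females, and 3 lost the Slc17a1 call in castrated males. The first count was 5 without animal 26 and 6 without animal 61 or 63; the second was 4 without animal 53, 1 without animal 19 or 51, and 0 without animal 50, 52 or 54. Against intact males 4 of 28 passed in castrated males with DHT (6.32% of all probes) and 4 of 28 in ovariectomized females with DHT (4.48%), with Abcb11, the bile salt export pump gene, lower by -0.60 (limma adjusted p = 0.00205) in castrated males with DHT; the count there was 7 without animal 11. Between the placebo groups of the 2 sexes 0 of 28 passed in limma (2 of 28 unadjusted; 0.0679% of all probes). Ovariectomy moved 0 of 28 (1 of 28 unadjusted; 0.0339%), estradiol 0 of 28 in females (5 of 28 unadjusted; 0.632%) and 1 of 28 in castrated males (1.18%), Slco3a1 at -0.52, named after its value was seen, a call lost in 8 of 10 fits that left out 1 animal. The percentages are for adjusted p. The unadjusted counts stand against 1277 of 23574 probes between the placebo groups, 1190 for ovariectomy and 2542 for estradiol in females.

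Of 22 measured genes of growth hormone and sex steroid signalling and of liver transcription factors, 1 passed between intact females and intact males, against 8.69% of all probes, Tox at 0.80 ± 0.23 (SE; limma adjusted p = 0.0226), a nuclear factor gene, higher in 5 of 5 females; the count was 0 without animal 1 and 4 without animal 11. After castration 3 of 22 passed, a share near the 12.1% of all probes. Cux2, a repressor known from female mouse liver, was higher in castrated males with placebo than in intact males by 1.14 ± 0.31 (SE; limma adjusted p = 0.0124), Tox was higher by 0.83 ± 0.23 (SE; limma adjusted p = 0.0146), and the pioneer factor gene Foxa1 was lower by -0.79 ± 0.13 (SE; limma adjusted p = 4.33e-05), each in 5 of 5 animals. For Tox, 4 of the 5 lay above all intact males. Cux2 was at 0.72 ± 0.31 (SE) in intact females against intact males and did not pass (limma adjusted p = 0.162). With DHT 1 of 22 passed in castrated males (3.47% of all probes), Onecut1, which encodes HNF6, at 0.32 (limma adjusted p = 0.0461); its second probe read -0.11, and the call was lost in 8 of 10 fits that left out 1 animal. The count was 2 without animal 61. In ovariectomized females with DHT 0 of 22 passed in limma (6 of 22 unadjusted), and 1 without animal 53. Ovariectomy moved 0 of 22 (1 of 22 unadjusted), estradiol 0 of 22 in castrated males (2 of 22 unadjusted) and 0 of 22 in females (2 of 22 unadjusted, and 1 passed without animal 33 or 34), and between the placebo groups 0 of 22 passed (4 of 22 unadjusted). Unadjusted, 2675 of 23574 probes passed for DHT in females, 1190 for ovariectomy and 1277 between the placebo groups. For estradiol it was 3227 in castrated males and 2542 in females. Against intact males, 1 of 22 passed in castrated males with DHT (6.32% of all probes) and 1 of 22 in ovariectomized females with DHT (4.48%). Foxa1 was lower in castrated males with DHT by -0.47 (limma adjusted p = 0.0222), in 4 of 5 animals, a call lost without animal 8, 10, 60 or 61, and Tox was higher in ovariectomized females with DHT by 1.16 (limma adjusted p = 0.00182), in 5 of 5. Without animal 11 these counts were 4 and 2.

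The arrays were checked once for labels and scale. All 20 females lay below all 20 males for the Y-linked genes Eif2s3y and Kdm5d, as the sex labels require. Array medians lay between -0.04 and 0.04 and interquartile ranges between 0.13 and 0.34 on the log2 scale. Read as log10, the mean linear ratio over the 40 livers was 1.00 for Slc22a26 and 0.98 for Slc22a27, where a pool of equal parts of the same livers would give 1. Read as natural logarithms it was 0.893 and 0.925, and read as log2 0.897 and 0.934; folds would be smaller under either reading. The lowest correlation between 2 arrays was -0.47, and 28 of 780 pairs were under -0.3; the labels state the dyes and the hormone states could oppose each other, so the direction was kept. Of 6 hepatocyte markers measured 2 passed between intact females and intact males, 1 higher and 1 lower, against 8.69% of all probes, and after castration 1 of 6 passed, Serpina1a at -0.35 (limma adjusted p = 0.00282), against 12.1%. Serpina1a also passed limma's interaction test of gonadectomy and sex (adjusted p = 0.0459). Of 4 kidney markers 0 passed in limma in these comparisons. Of 7 endothelial markers 1 passed between intact females and intact males and 1 after castration, against 8.69% and 12.1% of all probes. This was Tek in both, at 0.21 in intact females and 0.20 in castrated males with placebo. Against placebo 1 of 7 passed with DHT (3.47% of all probes) and 1 with estradiol (1.18%) in castrated males. This was again Tek, lower by -0.23 with DHT and by -0.24 with estradiol. Lyve1, another endothelial marker, was higher in ovariectomized females with DHT, by 0.54 against placebo and by 0.50 against intact males. It was the 1 of 7 that passed in each, against 1.15% and 4.48% of all probes. Of 5 stellate cell and fibroblast markers, 1 passed between intact females and intact males and 2 after castration, against 8.69% and 12.1% of all probes. Reln was higher by 0.46 and 0.42, and Col1a2 was lower by -0.32 after castration. Of 2 bile duct markers 0 passed in these comparisons in limma. In ovariectomized females with DHT against intact males 1 of 2 passed, Epcam, higher by 0.36, against 4.48% of all probes. The part of these cells in the transporter values was not tested.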

How the data were processed

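The 40 arrays compare liver RNA in Cy5 with a pool of liver RNA in Cy3, per the labels, and no dyes were swapped. The authors deposited log ratios for 23574 probes with 0 missing values and 0 unused columns. No source used here states the base, which was taken as log10 from the values, which stop at -2 and 2 and give a mean linear ratio to the pool near 1; every fold rests on it. Background correction and normalization are not given in the sources used here, and scanner files were not used here. That the pool held these same livers follows the design text. The deposited log10 ratios were multiplied by 3.3219 to give log2 ratios. Each animal was counted as 1 replicate of its labelled group.

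A model of 8 group means was fitted with limma 3.58.1 in R 4.3.3 (lmFit, contrasts, eBayes; 32 residual and 3.42 prior degrees of freedom), with Benjamini-Hochberg adjustment over all probes and a threshold of 0.05, two-sided. The probe of largest SD stood for a gene. The labels give no batch. On simulated data for castrated placebo against intact males over 23574 probes, 98% of changes of 1 and 100% of changes of 2 (log2) were recovered, with 14 false calls. The simulated noise was independent between probes and equally wide in all 8 groups, unlike these data. It checks the fit and does not give the power of the tests here.

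The 2 genes and the lists were chosen with earlier results of these data known. Named genes are the 2 transporters, the 6 most and 3 least like each over the 40 arrays, up to 6 passing genes of each list, Slc22 neighbours, and Eif2s3y and Kdm5d. Alternatives were median centring, quantile normalization, array weights, 2-group fits, means of probes, group medians and leaving out each animal. Figures were drawn with matplotlib 3.10.9. The number of arrays limits the precision.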

Additional observations from a re-analysis of the deposited data

Results flagged for a closer look

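Animal 53 stood apart from the other ovariectomized females with DHT in Slc22a26, at 0.44, in Slc22a27, at 0.95, and in the shift of other DHT-responsive probes, at 0.27. In each case its gap to the nearest animal was more than 0.71 of the group's range, Dixon's limit for 5 values, used here to describe and not to test, because the 2 genes were chosen on these values and the shift was added after they had been seen. Chance passes this limit in about 1 in 20 groups; the 3 values come from 1 array and are not independent of each other, so they are not set against that share.

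The effect of gonadectomy, with placebo against intact, differed between females and males by limma's interaction test for 8 of the 12 transporter genes that the naming rule took from the lists. That rule used the castration contrast, which is part of the interaction, so this count is not set against the share over all probes. Given as female minus male effect, it was 1.10 for Slc22a30 (limma adjusted p = 0.00677), 0.57 for Slc22a7 (limma adjusted p = 0.00845), 0.30 for Slc22a6 (limma adjusted p = 0.00903), 1.59 for Slco1a1 (limma adjusted p = 0.00965), 1.34 for Abcg2 (limma adjusted p = 0.00925) and 0.52 for Abcb1b (limma adjusted p = 0.0123). It was -1.91 for Slco1a4 (limma adjusted p = 0.00861) and -1.35 for Abcb1a (limma adjusted p = 0.0424). The Abcb1a call was lost in 15 of 20 fits that left out 1 animal, and the other 7 passed in all 20. In quantile-normalized ratios 3 of the 8 passed.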

How the results depend on the processing

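No paired analysis was possible because each animal number occurs in 1 group. No difference of Slc22a26 or Slc22a27 that lay beyond its SE changed sign in any alternative run. Of 272 member values under alternatives 267 moved by less than the residual SD of the fit, 0.93 for Slc22a26 and 0.62 for Slc22a27. The DHT groups widen this SD, so small differences could hardly exceed it, and nothing is read from this count. For Slc22a27, castrated males with DHT differed from intact males by 0.62, and by 0.26 without animal 61, which was counted as unmoved. The Slc22a26 difference moved with quantile normalization to 4.23 between intact females and intact males, 4.22 for castration, 1.25 between castrated males with DHT and intact males and 1.47 between ovariectomized females with DHT and intact males, and with group medians to 1.51 between castrated males with DHT and intact males; the cause was not tested. The within-group correlation lay between 0.52 and 0.87 over its alternatives, always with a permutation p under the threshold. The pair was chosen on these arrays, so these p-values describe it only.

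Counts of list genes depended more on the setting. Median centring gave 0 of the other carriers for estradiol in castrated males. Quantile normalization gave 0 Slc22 genes against intact males in both DHT groups and 1 for DHT in females; 0 other carriers for estradiol in castrated males, 5 for DHT in females, and 1 and 2 against intact males in castrated and ovariectomized DHT animals; and 0 regulators between intact sexes, 2 for DHT in females and 0 in castrated DHT males against intact males. Array weights, under which each count given here was higher than without them, gave 8 Slc22 genes between intact sexes, 1 for estradiol in females, 4 and 1 for DHT in males and females, and 9 and 4 for DHT males and females against intact males. They gave 2 other carriers for estradiol in castrated males, 10 and 6 for DHT, and 12 and 8 against intact males, and 7 regulators for the intact sexes, 7 for castration, 2 for estradiol in each sex, 6 and 3 for DHT, and 5 and 2 against intact males. Fits of only the 2 groups compared gave 2 Slc22 genes between intact sexes, 3 for castration, 1 for DHT in females, and 0 and 1 against intact males; 0 other carriers for estradiol in castrated males and 2 against intact males in either DHT group; and 4 regulators between intact sexes, 1 for estradiol in females, 0 and 1 for DHT, 1 between the placebo groups and 0 for DHT males against intact males. Means of probes gave 0 regulators for DHT in males.

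Leaving out each animal in turn, the Slc22 counts ran from 3 to 6 for castration, 2 to 5 and 0 to 2 for DHT males and females against intact males, 0 to 1 for DHT in males (1 without animal 61) and 0 to 1 for estradiol in females (1 without animal 33). Other carriers ran from 6 to 11 for castration, 0 to 1 for estradiol in males, 2 to 6 and 0 to 4 for DHT in males and females and 3 to 7 for DHT males against intact males. Regulators ran from 0 to 4 between intact sexes, 0 to 1 for estradiol in females (1 without animal 33 or 34), 0 to 2 and 0 to 1 for DHT in males and females (2 without animal 61, 1 without animal 53), and 0 to 4 and 1 to 2 for DHT males and females against intact males (4 and 2 without animal 11). None of the differences of list genes that passed changed sign.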
